A study of Mus musculus with 6 samples.

Results

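The genes described here encode core and regulatory proteins of pre-mRNA splicing, in T follicular helper (Tfh) cells sequenced from mice. They were chosen by name alone, as every gene in the table whose symbol starts with Srsf (the SR proteins), Hnrnp (the hnRNP proteins), Sf3a or Sf3b (subunits of the SF3 complexes) or Snrp (proteins of the small nuclear ribonucleoproteins, snRNPs). The table lists 14744 genes. Of these, 54 had such a symbol, and 51 of the 54 reached a normalised read count of at least 10 in at least 3 of the 6 libraries. The 51 were 10 of 11 SR genes, 20 of 21 hnRNP genes, 9 of 9 SF3 genes and 12 of 13 Snrp genes, among 11296 genes tested.

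Tfh cells, which give help to germinal centre B cells, were sorted as CD4+B220-CD44+PD-1+CXCR5+ cells from the mesenteric lymph nodes (MLNs), at 10000 to 30000 cells a sample. The mice were C57BL/6 by label and C57BL/6J by the study's methods, and either WT or Bach2 fl/fl Cd4-cre. The comparison asked how gene expression in Tfh cells differs when Bach2, a transcriptional repressor, is deleted in the T cell lineage by Cre driven from Cd4, and it had 3 WT libraries and 3 libraries labelled Bach2-cKO. By the study's definition WT mice are Cd4-Cre littermates, and its RNA sequencing is shown with mice of 2 to 3 months of age. Nothing stated that the 3 libraries of a group came from separate mice, so the p-values measure the spread between these libraries.

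Splicing removes introns from pre-mRNA in steps carried out by the spliceosome, which is built on each intron from snRNPs. The U1 snRNP pairs with the 5′ splice site, and the U2 snRNP, carrying the SF3a and SF3b complexes, engages the branch point. SR proteins bind exonic enhancers and help to recruit this machinery, while hnRNP proteins coat the transcript and often act as silencers, so that exon choice depends on both kinds. In T cells the textbook example is Ptprc (CD45), whose variable exons are silenced by Hnrnpll and Hnrnpl during activation.

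The libraries held 5045131 to 10987752 reads when each value was divided by its library's smallest step. In WT replicate 1 a value above 0 was found for 11648 genes, while the other libraries had 13111 to 13567 such genes, and limma's library weights ranged from 0.206 for it to 5.54 for replicate 2 labelled Bach2-cKO. All 10 genes of the T and Tfh list were measured, and they summed to 32027 to 45441 normalised read counts in WT and 23291 to 31661 in the libraries labelled Bach2-cKO. Cxcr5 was at 1613, 1444 and 2039 in WT and at 2028, 1271 and 2207 in the other group. DESeq2, which called 1.92% of all genes higher and 3.07% lower, called 3 of the 10: Cd3e (10623, 9648 and 11924 against 4534, 5238 and 6139.8, adjusted p = 0.00031) and Icos (2547, 4079 and 4953 against 1675, 1439.9 and 2511, adjusted p = 0.0159) lower, and Tox2 (624, 1259.7 and 1365 against 2739, 1759 and 2189.8, adjusted p = 0.0318) higher. Of the 3 regulatory T cell genes it called Foxp3 lower, at 222, 315 and 344 in WT and 47.3, 140.0 and 91.0 in the other group (adjusted p = 0.0113). Of the B cell list 7 of 8 genes were in the table, and they summed to 240.2 to 801 normalised read counts in WT and 335 to 418 in the other group. Over the 5 tested the median was -0.80 on the log2 scale, and 4 lay below 0, among them Ms4a1 at 35.3, 33.7 and 45.8 in WT and 2.96, 2.68 and 10.2 in the other group (DESeq2 adjusted p = 0.0506). The 7 myeloid genes summed to 2991 to 11393 in WT and 2719 to 10108 in the libraries labelled Bach2-cKO, with Lyz2 at 1407 to 7211. The part of these cell type transcripts in the results was not tested.

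Bach2 itself went against its label. It was at 233, 222 and 105 normalised read counts in WT and at 399, 763 and 591 in the libraries labelled Bach2-cKO, which is 1.68 ± 0.37 higher on the log2 scale (SE, n = 3 per group; adjusted p of 0.141 by limma and 0.00502 by DESeq2). A count over the whole gene also takes in reads from exons that Cre does not remove, so this count does not check the deletion. Each difference below is stated between the libraries as labelled.

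The 51 splicing genes were not called by the main test, and the families are described by their values, with no test of a difference between them. On log2(normalised read count + 1), libraries labelled Bach2-cKO minus WT, 8 of the 10 SR genes had a fold change below 0, as 5111 of all 11296 genes did. Of the 20 hnRNP genes 12 had a fold change above 0, as 6185 of all 11296 genes did. The SR and hnRNP medians were -0.40 and 0.20. The median over the 9 SF3 genes was -0.017, that over the 12 Snrp genes was -0.10, that over all 51 genes was -0.060, and that over all genes tested was 0.082. The largest differences among the 51 were in Sf3b4, lower, and Hnrnpa0, higher.

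**Figure D1:**
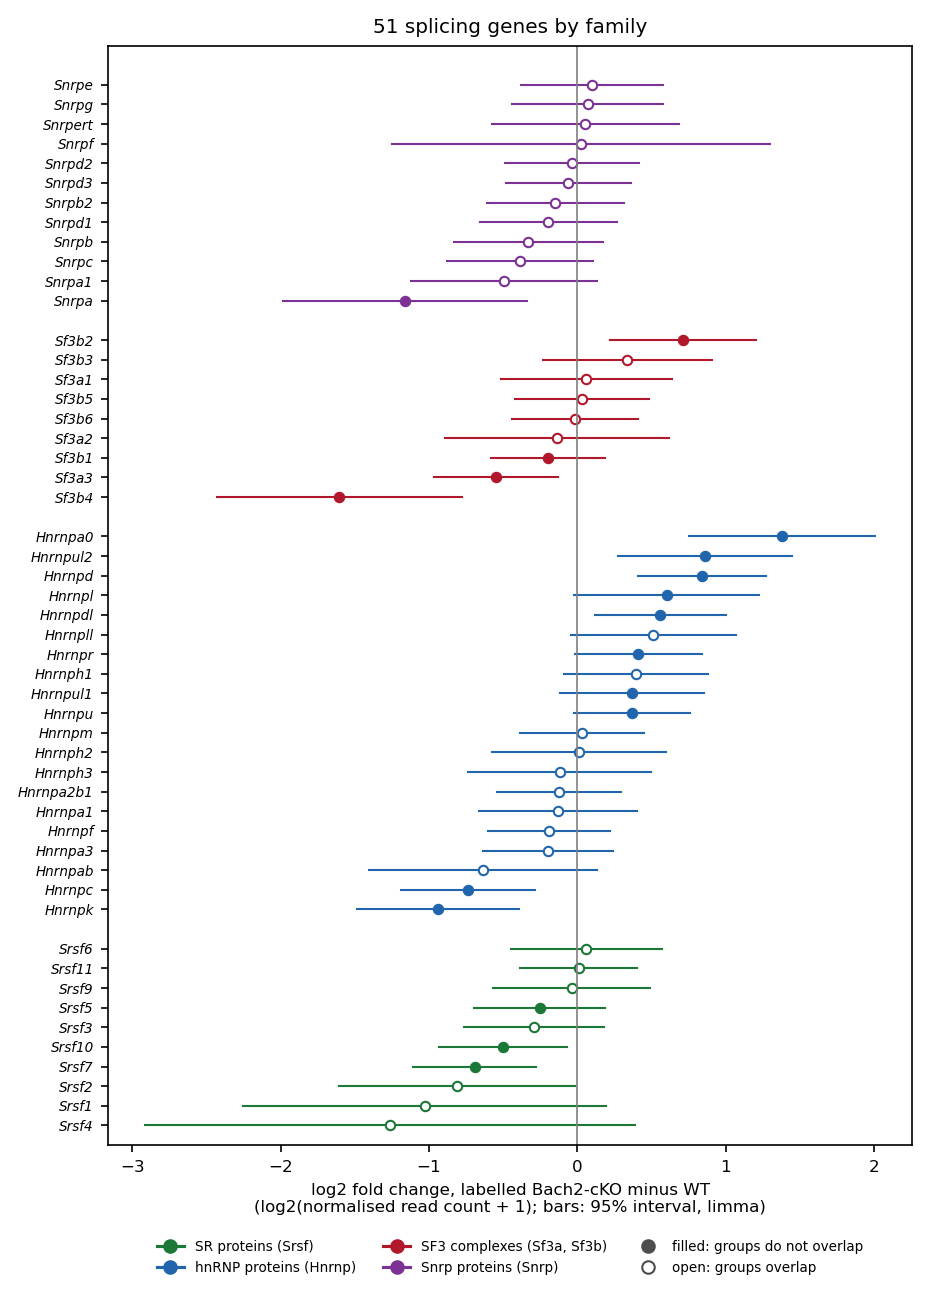
Log2 fold change of each of the 51 splicing genes (libraries labelled Bach2-cKO minus WT, on log2(normalised read count + 1)), by family. Bars are 95% intervals from limma (n = 3 per group) and filled points mark genes whose 6 values do not overlap between the groups, 18 in all; SR genes lie mostly left of 0, and the hnRNP genes spread from Hnrnpk at -0.94 to Hnrnpa0 at 1.38.

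Limma, the main test, called 0 of the 51 genes at a Benjamini-Hochberg adjusted p under 0.05, and it called 0.0% of all genes tested. The smallest adjusted p was 0.141, both over the 51 genes and over all genes. At an unadjusted p under 0.05, 5 of the 51 were higher and 8 were lower, against 10.1% of all genes higher and 10.2% lower. The count of higher genes was near that background and the count of lower genes above it, and the difference from the background was not tested. The 2 groups did not overlap for 9 genes that were higher and 9 that were lower, against 14.6% and 12.2% of all genes. DESeq2 run on the reads of all 6 libraries, the test closest to the study's own, called 6 of the 51 at an adjusted p under 0.05: Hnrnpa0 and Hnrnpd higher, against 1.92% of all genes, and Hnrnpk, Hnrnpc, Srsf7 and Sf3b4 lower, against 3.07%. All 6 had groups that did not overlap, as follows in part from their choice by a test on the same values. Hnrnpa0 and Sf3b4 also passed the study's stricter thresholds (adjusted p under 0.01, fold change over 2), as 120 of all genes did. The study itself reports far more genes at these thresholds, so this run does not stand in for its own. On the same reads, edgeR (quasi-likelihood) called 0 of the 51, with 5 higher and 8 lower at an unadjusted p under 0.05, beside 8.95% and 10.1% of all genes. Values are of bulk RNA, in which fewer cells with a transcript and less of it per cell cannot be told apart. Strand was not stated for the counting, and 20 of the 51 genes overlap a gene on the other strand, Hnrnpk, Hnrnpd, Sf3b4, Sf3b2 and Snrpa among them. A stretch of at least 200 bases at 95% identity or more recurs in another gene for 21 of the 51.

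**Figure D2:**
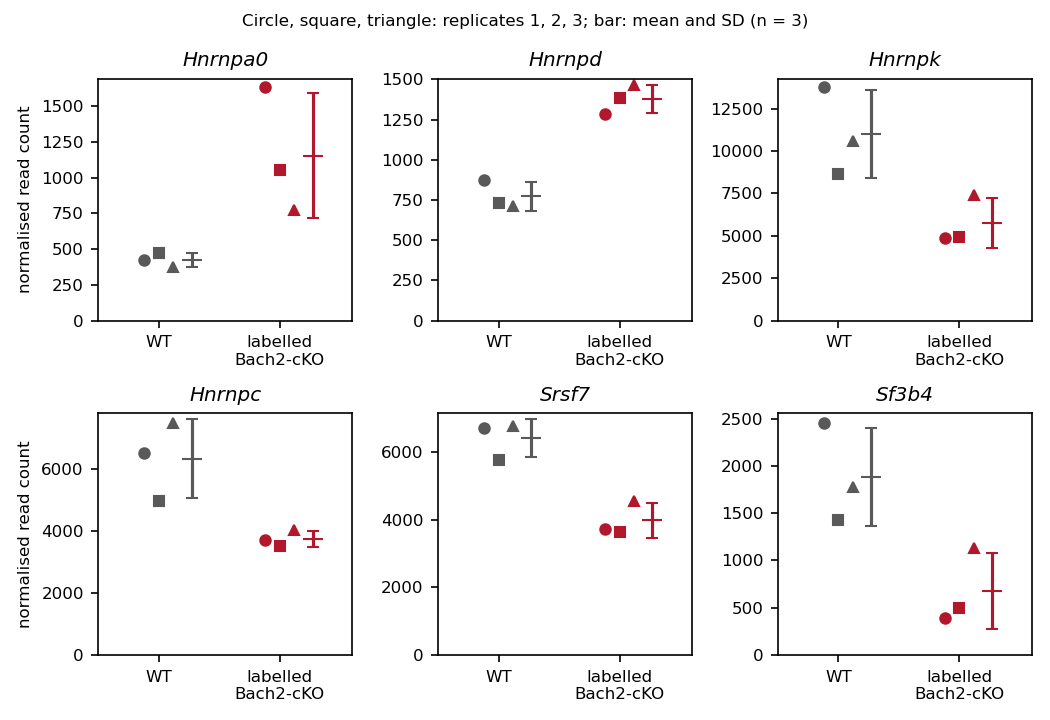
Normalised read counts of the 6 splicing genes that DESeq2 called on 6 libraries, in each WT library (grey) and each library labelled Bach2-cKO (red), with the mean and SD (n = 3). No value of one group reaches the other group's range in any of the 6 genes, as follows in part from their choice on these values. Replicate 3 labelled Bach2-cKO (triangle) is the closest of its group to WT in all of them but Hnrnpd.

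The genes called higher by DESeq2 were both hnRNP genes with known roles in mRNA stability. Hnrnpa0 (GRCm38, chr13:58125879-58128556, minus strand) binds AU-rich elements, sequences in the 3′ ends of short-lived mRNAs such as those of cytokines. It was at 426, 473 and 373 normalised read counts in WT and at 1632, 1056 and 776 in the libraries labelled Bach2-cKO. Its lowest value in the second group was thus above its highest in WT, by a clear gap. The log2 fold change was 1.38 ± 0.28 (SE, n = 3 per group), with an adjusted p of 0.141 by limma and 0.00172 by DESeq2. Hnrnpd (chr5:99955935-99978938, minus strand), known as AUF1, promotes the decay of many AU-rich mRNAs. It was at 875, 731 and 711 normalised read counts in WT and at 1287, 1382 and 1464 in the libraries labelled Bach2-cKO, 2 tight groups that were well apart. Its log2 fold change was 0.84 ± 0.19, with an adjusted p of 0.141 by limma and 0.0174 by DESeq2. With length and GC content corrected for, as described below, Hnrnpa0 was at 1.19 and Hnrnpd at 0.55.

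Hnrnpdl, a close relative of Hnrnpd, stood at 1293, 1291 and 1012 normalised read counts in WT and at 1930.2, 1799 and 1559 in the libraries labelled Bach2-cKO. Those groups did not overlap either. They differed by 0.56 ± 0.20 on the log2 scale (limma adjusted p = 0.175, DESeq2 adjusted p = 0.152). Hnrnpul2, a relative of the scaffold protein Hnrnpu, was at 272, 245 and 294 in WT and at 588, 537 and 371 in the other group, 0.86 ± 0.26 higher on the log2 scale (limma adjusted p = 0.155). Hnrnpu, which binds nuclear RNA and chromatin, was at 3061, 3076 and 3259 and at 4302, 4231 and 3613. Its groups did not overlap, but its log2 fold change of 0.37 had a 95% interval from -0.024 to 0.76. Hnrnph1, which binds runs of G, was at 1982, 2478 and 2424 and at 3692, 3165 and 2316. Its last library fell inside the WT range, and its log2 fold change was 0.39 with an interval from -0.092 to 0.88. The log2 fold change of Hnrnph1 ran from 0.25 to 0.58 with 1 library left out. With length and GC content corrected for, as described below, Hnrnpul2 was at 0.40 and Hnrnpu at 0.079. Hnrnpdl and Hnrnph1 were then at 0.63 and 0.64.

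The known regulators of CD45 exons, Hnrnpl and Hnrnpll, had higher means in the libraries labelled Bach2-cKO. Limma called them only with library weights (adjusted p = 0.0018 and 0.0015), a setting that called 18.5% of all genes higher and 18.4% lower. Hnrnpl, which binds CA repeats, was at 653, 433 and 313 normalised read counts in WT and at 687, 663 and 683 in the libraries labelled Bach2-cKO. WT replicate 1 came close to the second group, and the log2 fold change was 0.60 with a 95% interval from -0.020 to 1.23 (limma adjusted p = 0.256). Hnrnpll was at 983, 881 and 631 in WT and at 1327, 1337 and 894 in the other group, where replicate 3 lay among the WT values. Its log2 fold change was 0.51 with an interval from -0.044 to 1.07 (limma adjusted p = 0.272). Ptprc, the gene whose exons they silence, had total counts of 14598, 26997 and 28517 in WT and 31593, 24908 and 27345 in the libraries labelled Bach2-cKO, which overlapped (log2 fold change 0.31 ± 0.28, limma adjusted p = 0.525). Without WT replicate 3 the log2 fold changes of Hnrnpl and Hnrnpll were 0.35 and 0.33. Counts per gene do not show which exons were used.

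Abundant hnRNP genes were among those lower in the libraries labelled Bach2-cKO. Hnrnpk (chr13:58391142-58403343, minus strand), a KH-domain protein that binds C-rich RNA and DNA, was at 13795, 8663 and 10557 normalised read counts in WT and at 4886, 4911 and 7421 in the other group. Every WT library was above every library labelled Bach2-cKO. The log2 fold change was -0.94 ± 0.25 (limma adjusted p = 0.141, DESeq2 adjusted p = 0.0121). Hnrnpc (chr14:52073377-52104028, minus strand) binds U tracts and keeps cryptic exons from being spliced in. It was at 6519, 4976 and 7496 in WT and at 3724, 3504 and 4023 in the libraries labelled Bach2-cKO, again with no overlap. Its log2 fold change was -0.74 ± 0.20 (limma adjusted p = 0.144, DESeq2 adjusted p = 0.0153). Hnrnpk has 2 other genes nearly identical to part of its transcript and Hnrnpc has 1, so some of their reads may have been lost or shared in counting.

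The groups of Hnrnpa2b1, Hnrnpa1 and Hnrnpa3, relatives of Hnrnpa0, overlapped. Hnrnpa2b1, the most abundant hnRNP gene per kilobase of transcript at 7419 normalised read counts per kb in WT, was at 13602, 11622 and 13237 normalised read counts in WT and at 12851, 11460.5 and 10982 in the libraries labelled Bach2-cKO. The log2 fold change of -0.12 had a 95% interval from -0.54 to 0.29. Hnrnpa1, the prototype silencer, was at 2779.7, 1867 and 1646 and at 1683, 1695 and 2269, with an interval of the log2 fold change from -0.67 to 0.40. Hnrnpa3 was at 2296, 2204 and 2614 and at 1861, 1877 and 2519, with an interval from -0.64 to 0.24. Hnrnpa3 and Hnrnpa1 have 27 and 8 near-identical copies elsewhere in the annotation. The other 7 hnRNP genes ranged in WT means from 480.3 normalised read counts (Hnrnpul1) to 3153 (Hnrnpf). Of them Hnrnpr (986 to 1096 in WT, 1242 to 1589 in the other group) and Hnrnpul1 (419 to 547, 596 to 656) had groups that did not overlap, both higher. Once length and GC content were corrected for, as described below, Hnrnpr went from a log2 fold change of 0.41 to 0.11 and Hnrnpul1 from 0.37 to -0.13. Hnrnpab had 1 value far from the rest, 2372 in WT replicate 1 against 721 to 939 in the other 5 libraries. Hnrnpf, Hnrnph2, Hnrnph3 and Hnrnpm overlapped between the groups. Summed over the 20 genes, hnRNP transcripts made up 0.751%, 0.644% and 0.651% of all normalised read counts in WT. In the libraries labelled Bach2-cKO they made up 0.659%, 0.623% and 0.647%. These sums overlapped, so the summed level was not higher, although the median log2 fold change was 0.20.

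Of the 10 SR genes 8 had a fold change below 0, as 5111 of all 11296 genes did. At an unadjusted p under 0.05, 3 were lower and 0 higher, beside 10.2% and 10.1% of all genes, too few genes to read a difference from. Srsf7 (chr17:80200080-80207307, minus strand), an SR protein with a zinc knuckle that also adapts mRNA for export, was at 6710.0, 5763 and 6766 normalised read counts in WT and at 3723, 3648 and 4559.6 in the libraries labelled Bach2-cKO. The groups were tight and apart. Its log2 fold change was -0.69 ± 0.19 (SE, n = 3 per group; limma adjusted p = 0.142, DESeq2 adjusted p = 0.0159). Once length and GC content were corrected for, as described below, that of Srsf7 was -0.31. Srsf10 (chr4:135855747-135869908, plus strand), which represses splicing when it loses its phosphates, was at 2323, 2192 and 2448 in WT and at 1553, 1433 and 1975 in the other group. It too did not overlap, and the log2 difference was -0.50 ± 0.19 (limma adjusted p = 0.20, DESeq2 adjusted p = 0.130).

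Other SR genes with large fold changes rested on few reads or on 1 library. Srsf2, known as SC35, was at 2099, 791 and 868 normalised read counts in WT and at 532, 606 and 822 in the libraries labelled Bach2-cKO. WT replicate 1 stood far above the rest, and without it the DESeq2 log2 fold change went from -0.98 to -0.37 (adjusted p = 0.0958 and 0.486). Srsf1, the founding SR protein, was low, at 90.8, 65.1 and 70.7 in WT and 22.2, 32.2 and 65.5 in the other group. The 95% interval of its log2 fold change of -1.03 ran from -2.25 to 0.19. Srsf4 was at 117, 39.3 and 45.8 and at 8.87, 36.9 and 41.9, where only the last library of the second group lay inside the WT range, and its interval ran from -2.92 to 0.39.

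For Srsf3 and Srsf5, both abundant, the 95% intervals spanned 0. Srsf3, the smallest SR protein, was at 8622, 6422 and 7860.1 normalised read counts in WT and at 5414, 5669.9 and 7672 in the libraries labelled Bach2-cKO, a log2 fold change of -0.30 with a 95% interval from -0.77 to 0.18. Srsf5 was at 2939, 2231 and 2191 and at 1806, 2162 and 2164. Its groups did not overlap, although 2191 and 2164 are almost the same value, and the interval of its log2 fold change ran from -0.69 to 0.18. Srsf6, Srsf9 and Srsf11 overlapped between the groups, with WT means of 1919, 806 and 2225. Summed over the 10 genes, SR transcripts made up 0.370%, 0.297% and 0.304% of all normalised read counts in WT and 0.242%, 0.251% and 0.303% in the libraries labelled Bach2-cKO, so replicate 3 of the second group lay within the WT range.

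Within SF3b, the U2 snRNP complex that clamps the branch point, the values of Sf3b4 and Sf3b2 lay in opposite directions. Sf3b4 (chr3:96172332-96177564, plus strand), the RNA-binding subunit that contacts the intron near the branch point, was at 2449.6, 1427 and 1780.2 normalised read counts in WT and at 392, 494 and 1135 in the libraries labelled Bach2-cKO. All 3 were below the lowest WT value. The log2 fold change was -1.61 ± 0.37 (SE, n = 3 per group), the lowest of the 51, with an adjusted p of 0.141 by limma and 0.00691 by DESeq2. Sf3b2 (chr19:5273932-5295455, minus strand), the subunit that binds Sf3b4 directly, was at 1044, 1508 and 1509 in WT and at 2053, 1934 and 2634 in the other group. Here every library labelled Bach2-cKO was above every library from WT mice, and the log2 difference was 0.71 ± 0.22 (limma adjusted p = 0.156, DESeq2 adjusted p = 0.0775). With length and GC content corrected for, as described below, Sf3b4 was at -1.64 and Sf3b2 at 0.36.

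Sf3b1, the large subunit that surrounds the branch point adenosine, was at 6612, 6316 and 6309.7 normalised read counts in WT and at 5668, 5248 and 5878 in the libraries labelled Bach2-cKO. The groups did not overlap but were close, and the 95% interval of the log2 fold change of -0.20 ran from -0.58 to 0.19. Once length and GC content were corrected for, as described below, that log2 fold change was -0.48. Sf3b3 was at 896, 637 and 611 and at 1094, 966 and 667, with an interval from -0.23 to 0.91. In SF3a, which joins SF3b to the U2 particle, Sf3a3 was at 1912, 1805 and 1810.3 in WT and at 1123, 1229.5 and 1452 in the other group. It was lower in all 3, with a log2 difference of -0.55 ± 0.19 (limma adjusted p = 0.171, DESeq2 adjusted p = 0.0859). The same correction brought Sf3a3 to -0.29. Sf3a1 was at 941, 523 and 585 and at 723, 735 and 615, and its interval ran from -0.52 to 0.64. Sf3a2, Sf3b5 and Sf3b6 overlapped between the groups, with WT means of 326, 1867 and 4711 normalised read counts.

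Among the 12 Snrp genes the largest difference was in a U1 protein, Snrpa. Its groups alone did not overlap, 1 gene lower of 12, beside 12.2% of all genes. Snrpa (chr7:27187005-27196271, minus strand), the U1 protein that binds a stem-loop of U1 RNA, was at 2221, 1287 and 1686 normalised read counts in WT and at 424, 789 and 1281 in the libraries labelled Bach2-cKO. Replicate 3 of the second group was just below the lowest WT library. The log2 fold change was -1.16 ± 0.37 (limma adjusted p = 0.158, DESeq2 adjusted p = 0.0554). It was -0.75 without replicate 1 labelled Bach2-cKO and -0.96 without WT replicate 1, where the DESeq2 adjusted p was 0.181. Snrpc, the U1 protein that steadies pairing at the 5′ splice site, was at 2434, 1949.5 and 2374 and at 1386, 1634 and 2232, which overlapped, with a 95% interval of the log2 fold change from -0.88 to 0.11. Snrpa1, of the U2 snRNP, was at 1494, 1029.7 and 1227 and at 578, 986 and 1180.3, with an interval from -1.12 to 0.13.

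The Sm proteins form the ring on which U1, U2, U4 and U5 snRNPs are built. Snrpb, which encodes SmB, was at 7871, 5606 and 6516 normalised read counts in WT and at 4496, 4690.3 and 6853 in the libraries labelled Bach2-cKO, with a 95% interval of the log2 fold change from -0.83 to 0.17. The median log2 fold change over the 7 Sm genes was -0.036, and the groups of all 7 overlapped. With length and GC content corrected for, that median changed sign, to 0.27. Snrpe (WT mean 6361), Snrpg (5057), Snrpd1 (2933), Snrpd2 (1987) and Snrpd3 (1586) were abundant, and Snrpf was low (40.6). Per kilobase of transcript Snrpe had the highest WT level of all 51 genes at 9508 normalised read counts per kb, and Srsf1 the lowest at 14.1. Snrpb2 of the U2 snRNP overlapped too, with a WT mean of 1690.2. Snrpert, annotated as a processed pseudogene nearly identical to Snrpe, had 322 to 588 normalised read counts, which may be reads of Snrpe.

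The other 3 genes with a matching symbol did not reach the minimum. Srsf12, the nearest to it, was at 0, 1.12 and 9.36 normalised read counts in WT and at 25.1, 4.69 and 6.14 in the libraries labelled Bach2-cKO, and Snrpf and Srsf4 were the lowest genes kept beside Srsf1. Snrpn, a brain-enriched relative of Snrpb, was at 0, 5.61 and 1.04 and at 0, 0 and 3.07. The pseudogene Hnrnpa1l2-ps was between 2.68 and 6.73 in all 6 libraries.

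**Figure D3:**
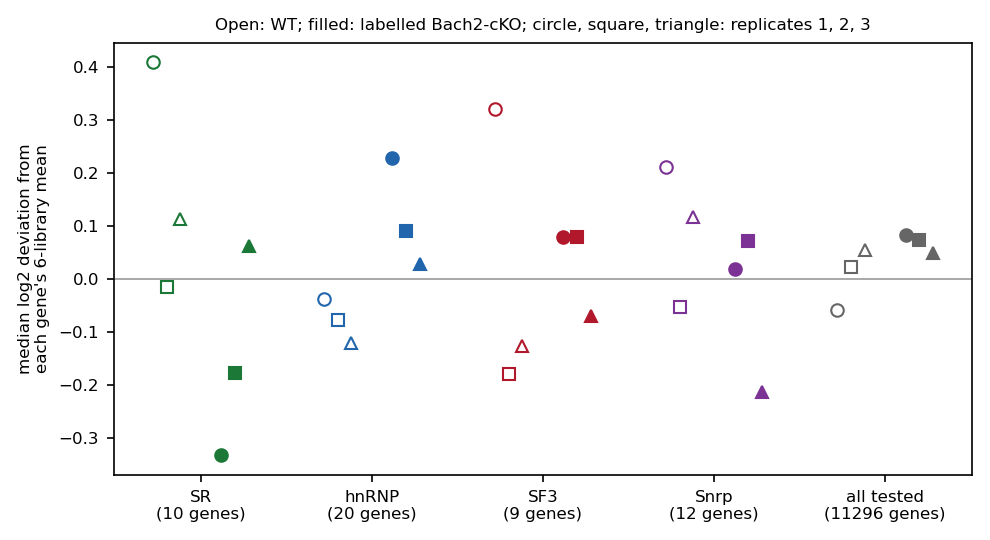
Median over each family of the log2 deviation of every gene from its 6-library mean, per library (open, WT; filled, labelled Bach2-cKO). WT replicate 1 is highest for the SR, SF3 and Snrp families, and the hnRNP medians of the groups lie apart, though not relative to those of all genes, which also lean higher in the libraries labelled Bach2-cKO.

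Libraries within a group differed in where they placed these genes. WT replicate 1 held the highest value for 26 of the 51 genes, and replicate 3 labelled Bach2-cKO was the closest of its group to the WT mean for 32 of the 51 and for 14 of the 18 genes whose groups did not overlap. These counts were not made over all genes, so they are not shown to be particular to the splicing genes. Without that replicate 3, the groups did not overlap for 27.2% of all genes, higher, and 23.0%, lower. Without replicate 1 labelled Bach2-cKO these shares were 17.0% and 14.0%, and without replicate 2 they were 17.0% and 14.5%. For the SR genes the median deviation from the 6-library mean was 0.41, -0.015 and 0.11 on the log2 scale in WT and -0.33, -0.18 and 0.063 in the libraries labelled Bach2-cKO. For the hnRNP genes it was -0.038, -0.078 and -0.12 and then 0.23, 0.090 and 0.028, 2 ranges that did not overlap. Over all genes it was -0.058, 0.022 and 0.054 and then 0.082, 0.073 and 0.050, and taken relative to all genes the hnRNP medians did overlap, at 0.019, -0.10 and -0.17 against 0.14, 0.018 and -0.022. A list of 20 proliferation genes was also highest in WT replicate 1, summing to 39804 normalised read counts there, 17929 and 26645 in the other WT libraries, and 20072, 16125 and 23493 in the libraries labelled Bach2-cKO. Its median log2 fold change was -0.54, and -0.32 without WT replicate 1, with 5 genes lower and 1 higher at an unadjusted p under 0.05 beside 10.2% and 10.1% of all genes, and its part in the SR difference was not tested.

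Leaving out or down-weighting libraries changed how many splicing genes were called. Without replicate 3 labelled Bach2-cKO, limma called 5 of the 51: Hnrnpa0 higher, against 1.61% of all genes, and Sf3b4, Snrpa, Hnrnpk and Srsf7 lower, against 2.88%. With library weights it called 10 higher and 13 lower, against 18.5% and 18.4% of all genes. DESeq2 on 5 libraries, without WT replicate 1, called Hnrnpa0 and Hnrnpd higher, against 1.51% of all genes, and Sf3b4 lower, against 1.74%. Hnrnpk, Hnrnpc and Srsf7 were at -0.77, -0.76 and -0.68 there (adjusted p = 0.0750, 0.0611 and 0.0727), beside -0.98, -0.79 and -0.72 by DESeq2 on 6 libraries. Hnrnpa0 and Sf3b4 were thus called in each of these 3 settings and by DESeq2 on 6 libraries. Without WT replicate 1 the SR median was -0.28 and the hnRNP median 0.19, and without replicate 3 labelled Bach2-cKO they were -0.54 and 0.24. The SF3 median, -0.017 on 6 libraries, was 0.18 and 0.068 in the same settings, and the Snrp median was -0.049 and -0.042. Over all settings with 1 library left out, the SF3 median ran from -0.11 to 0.18 and the Snrp median from -0.21 to -0.042.

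Transcript length moved with the fold change in these libraries. Across all 11268 genes with an annotated length, Spearman's rho between length and log2 fold change was 0.339, and across the 51 splicing genes it was 0.317. Genes are not independent replicates, and all these points share the same 6 libraries, so the values are descriptions. The median longest transcript was 1108 bases for the Snrp genes, 2510 for SR, 2908 for hnRNP, 3222 for SF3 and 2997 for all genes. When the dependence of each library on length and GC content was fitted smoothly and taken out, the median of all genes shifted by -0.12, and the family medians became -0.18 for SR, 0.16 for hnRNP, -0.29 for SF3 and 0.22 for Snrp. The SR median thus moved towards 0, and the Snrp median changed sign. At an unadjusted p under 0.05, 7 of the 13 splicing genes passed again in the same direction, while the share of all genes went from 10.1% to 4.85% higher and from 10.2% to 9.34% lower. Sf3b4 (-1.64), Hnrnpa0 (1.19), Snrpa (-1.23), Hnrnpk (-0.83) and Hnrnpc (-0.57) kept most of their difference. Srsf10 (-0.50 to -0.61) and Hnrnpdl (0.56 to 0.63) had slightly larger ones. Differences grew more for Hnrnph1 (0.39 to 0.64, newly passing at an unadjusted p of 0.0295), Sf3b1 (-0.20 to -0.48) and Hnrnpa3 (-0.20 to -0.40). Hnrnpd went from 0.84 to 0.55 and to an unadjusted p of 0.0779, Srsf7 from -0.69 to -0.31, Hnrnpul2 from 0.86 to 0.40, Sf3b2 from 0.71 to 0.36, Sf3a3 from -0.55 to -0.29 and Hnrnpu from 0.37 to 0.079.

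**Figure D4:**
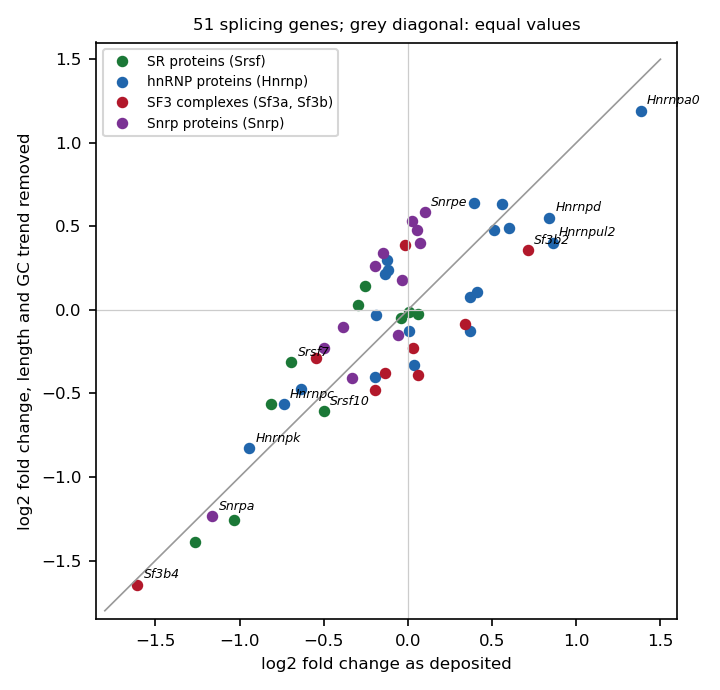
Log2 fold change of the 51 splicing genes on the deposited values (horizontal) and after a trend in transcript length and GC content was removed from each library (vertical); the diagonal marks equal values. Sf3b4, Snrpa and Hnrnpk stay close to the diagonal, Srsf7 moves to -0.31, and Snrpe is among the Snrp genes that move up.

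Genes of the same pathway outside the 4 families were tested in the same fit. Of 131 related genes 127 were tested, limma called 0 of them, and 20 were higher and 13 lower at an unadjusted p under 0.05, beside 10.1% and 10.2% of all genes. The count of lower genes was at that background. Their median log2 fold change was 0.20, and 0.00052 once the trend in length and GC content was removed. DESeq2 on 6 libraries called 6 higher and 7 lower, beside 1.92% and 3.07% of all genes. Of the 17 SR-related proteins, which carry RS domains without being classical SR proteins, 15 had a fold change above 0, as 6185 of all 11296 genes did, and 7 were higher at an unadjusted p under 0.05, beside 10.1% of all genes. Their median was 0.57, and 0.066 once the trend in length and GC content was removed. Luc7l2, a U1-associated protein, was the one with the smallest p, at 677, 996 and 768 normalised read counts in WT and 1741, 1678 and 1252 in the libraries labelled Bach2-cKO (log2 fold change 0.94 ± 0.23, DESeq2 adjusted p = 0.0181).

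In the branch point list DESeq2 called 2 genes higher and 1 lower, of 10 tested, beside 1.92% and 3.07% of all genes. The higher ones, named after their values were seen, were the helicase genes Ddx46 (log2 fold change 0.81, DESeq2 adjusted p = 0.0336) and Ddx42 (0.92, adjusted p = 0.0331). Once length and GC content were corrected for, Ddx46 and Ddx42 were at 0.44 and 0.57. The lower gene was Sf1, the protein that binds the branch point before the U2 snRNP does. Sf1 was at 478, 209.8 and 264 normalised read counts in WT and at 68.0, 63.7 and 129.9 in the libraries labelled Bach2-cKO. All 3 were below WT, and the log2 difference was -1.84 ± 0.42 (limma adjusted p = 0.141, DESeq2 adjusted p = 0.00452). Smn1, which loads Sm rings onto snRNAs, was at 583, 428 and 465 and at 182, 208 and 312 (log2 fold change -1.10 ± 0.29, DESeq2 adjusted p = 0.0233). It led the snRNP assembly list, in which 9 of 11 genes had a fold change below 0, as 5111 of all 11296 did, and 3 were lower at an unadjusted p under 0.05, beside 10.2% of all genes. Prpf38a, needed to activate the assembled spliceosome, was at 1372, 1278 and 1199 and at 585, 622 and 885 (log2 fold change -0.90 ± 0.22, DESeq2 adjusted p = 0.0159), and its log2 fold change was -0.51 with length and GC content corrected for.

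Mbnl1, a regulator of alternative exons, was higher in the libraries labelled Bach2-cKO, at 5745, 8236 and 6791 normalised read counts in WT and 11896, 13638 and 11569.7 in the other group (log2 fold change 0.85 ± 0.20, DESeq2 adjusted p = 0.0113). Tnpo2, an importin of hnRNP cargo, was at 96.9, 65.1 and 53.0 and at 235, 204 and 113 (log2 fold change 1.32 ± 0.43, DESeq2 adjusted p = 0.0703). Smg6, the endonuclease of nonsense-mediated decay, was at 79.7, 202 and 236 and at 405, 337 and 462 (log2 fold change 1.34 ± 0.40, DESeq2 adjusted p = 0.0593). Neither of the last pair overlapped between the groups, and with length and GC content corrected for they were at 0.76 and 0.82. Among SR kinases Clk3 was the gene with the smallest p, at 342, 228 and 441 and at 117, 131 and 309.9, where replicate 3 labelled Bach2-cKO lay inside the WT range (log2 fold change -0.95 ± 0.42, DESeq2 adjusted p = 0.22). Snrnp40 of the U5 snRNP, at 1403, 619 and 858 and at 198, 289 and 804, had the same overlap (log2 fold change -1.34 ± 0.48, DESeq2 adjusted p = 0.102). Lsm2 of the U6 ring was at 2208, 1338 and 1569 and at 931, 1201 and 1180.3 (log2 fold change -0.60 ± 0.23, DESeq2 adjusted p = 0.109).

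Bach2 binds the AP-1-like core TGAGTCA, so promoter sequences of the splicing genes were searched for it on both strands. RefSeq (GRCm38.p6) gave 58 windows for 44 of the 51 genes, each from 250 bases before to 50 after a start. Those without one were Snrpb, Snrpert, Sf3b4, Sf3b5, Hnrnpll, Snrpd1 and Hnrnpul2. The core was in 2 of the 58 windows, those of Hnrnpa1 and Snrpc, against 5.20% of 32851 windows of all genes. The E-box CACGTG was in 7 windows of 6 genes against 7.15% of all windows, the ETS core CCGGAAG in 21 windows of 16 genes against 8.86%, and the CRE TGACGTCA in 2 windows against 1.79%. Windows of 1 gene may overlap, and these motifs do not contain each other. The stretches below are shown because they hold the AP-1-like core, or because the gene was among those called by DESeq2 and holds an E-box (Hnrnpd) or an ETS core (Srsf7). A window of Hnrnpd also holds an ETS core on the opposite strand, within chr5:99979063-99979162, which is not printed. Each is 100 bases of the gene's own strand, 5′ to 3′, with the motif in capitals (read on the opposite strand for the first pair), from chr15:103240201-103240300, chr17:27839874-27839973, chr5:99978939-99979038 and chr17:80207456-80207555 in turn.
Hnrnpa1: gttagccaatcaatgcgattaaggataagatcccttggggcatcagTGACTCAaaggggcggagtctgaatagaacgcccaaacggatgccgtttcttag
Snrpc: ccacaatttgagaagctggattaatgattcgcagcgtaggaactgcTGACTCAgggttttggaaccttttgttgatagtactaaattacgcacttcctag
Hnrnpd: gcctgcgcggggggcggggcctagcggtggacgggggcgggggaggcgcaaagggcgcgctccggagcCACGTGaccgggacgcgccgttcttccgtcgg
Srsf7: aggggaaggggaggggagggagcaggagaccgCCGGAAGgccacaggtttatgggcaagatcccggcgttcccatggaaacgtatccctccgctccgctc
The genes with the AP-1-like core, Hnrnpa1 and Snrpc, both had groups that overlapped, as given above. A match describes letters in these windows only.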

How the data were processed

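RNA was amplified with the SMARTer Ultra Low kit and sequenced on a NextSeq500. The submitters' processing notes name STAR 2.5.2b, DESeq, DESeq2 1.20.0, R 3.5.1 and GRCm38 (mm10), while the study's methods name Tophat2, HTSeq and DESeq2; the annotation was not given in the sources used here. The deposited signal is a read count per gene symbol that the authors divided by a size factor for each library. All 6 columns were mapped to samples, and 0 were left over. The prefix rule, the gene lists and the members were chosen with earlier results of these data known.

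On log2(value + 1), limma 3.58.1 (R 4.3.3, trended variance) compared the groups over the genes that reached 10 in 3 or more libraries, with Benjamini-Hochberg adjustment over all of them. On this scale the change of low genes is understated. Each value divided by its library's smallest step gave a whole number, within 0.01, for 100% of values. On these reads edgeR 4.0.16 and DESeq2 1.42.0 were run with 5 libraries (without WT replicate 1, whose step of 1.01 is too near 1 for a rule on units) and, as an alternative added after the data were seen, with all 6. DESeq2 was not the main test because the deposited values are not counts. The procedures were tested on simulated data.

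Alternatives were pseudocounts of 0.5 and 5, other filters, TMM factors, median ratios, quantile normalization, no variance trend, library weights, a replicate block, a trend in length and GC content, and leaving out each library. Genes were matched to GENCODE M21 (GRCm38) by symbol (14329) or older symbol (368); length is that of the longest protein-coding transcript.

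Every gene found by prefix is named. Values in each library are given for the 3 members of each family with the smallest unadjusted p, for those any test called, for the 3 highest and 3 lowest fold changes, and for genes with a known role; of each related list, the gene with the smallest p is given. PCR copies were not told apart. With 3 libraries against 3 an exact permutation test cannot go below 0.1, so no such test was used. Groups of 3 are too small for a check on single outlying samples.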

Additional observations from a re-analysis of the deposited data

How the results depend on the processing

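The first tally covers 42 genes given with a fold change, without Ddx46 and Ddx42, while Hnrnpr and Hnrnpul1 are counted by level. Of its 881 values, 802 kept their direction and their side of an adjusted p of 0.05. The main fit called 0 genes, so keeping a side meant staying uncalled. Dropping the variance trend or adding the replicate block cannot change a fold change here, so part of this count was fixed by design. A further 63 newly passed it, and 16 values of 7 genes changed sign. Of the 21 splicing genes given by level, most of them near 0, 84 of 440 values (18 genes) changed sign, 11 of them with the length trend removed, Hnrnpul1 included (0.37 to -0.13). With library weights 23 splicing genes were called (18.5% of all genes higher, 18.4% lower), with DESeq2 on 5 libraries 3 (1.51% and 1.74%), with DESeq2 on 6 libraries 6 (1.92% and 3.07%), and when 1 library was left out 0 to 5, the 5 being without replicate 3 labelled Bach2-cKO. Genes higher at an unadjusted p under 0.05 numbered 10 with quantile normalization (10.6% of all genes), 11 with library weights (24.3%), 3 once the trend in length and GC was taken out (4.85%), and 4 to 9 with 1 library left out (4.14% to 13.1%). Lower ones numbered 13 with library weights (22.8% of all genes), 5 with the trend removed (9.34%) and 5 to 13 with 1 library left out (5.36% to 14.0%). Genes whose groups did not overlap numbered 9 to 17 higher and 9 to 19 lower with 1 library left out, the highest counts being without replicate 3 labelled Bach2-cKO; the smaller group makes overlap rarer, and the shares of all genes were 17.0% to 27.2% and 14.0% to 23.0%. Without WT replicate 1 they were 14 and 10, and without WT replicate 2 9 and 17. Family medians moved with the trend removed to -0.18 (SR), -0.29 (SF3) and 0.22 (Snrp), and for SF3 to 0.20 with library weights and 0.19 with edgeR on 5 libraries. Signs changed for Hnrnpa2b1 (0.017 with quantile normalization, 0.30 with the trend removed), Sf3b3 (-0.086), Srsf5 (0.15) and Srsf3 (0.032) with the trend removed, Sf3a1 (-0.0069 with edgeR and -0.024 with DESeq2 on 6 libraries, -0.39 with the trend removed, -0.11 to 0.32 with 1 library left out), Hnrnpa1 (0.092 with edgeR and 0.071 with DESeq2 on 5 libraries, 0.21 with the trend removed, -0.29 to 0.088 with 1 library left out) and Ptprc (-0.072 with library weights, -0.021 with DESeq2 on 5 libraries). The cause of these changes was not tested.

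With the replicate block 0 splicing genes were called, 6 were higher and 7 lower at an unadjusted p under 0.05, beside 9.0% and 9.15% of all genes. The libraries share only a number: the correlations between same-numbered libraries of their deviations from the group means were -0.069, 0.12 and -0.039, and 2 of 6 libraries correlated best with their own number. Srsf1, Srsf4 and Snrpf, under 120 normalised read counts in every library, are those that depth limits most.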

Other observations

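Ratios between genes of the same library do not depend on the size factor, and 4 are given as values, chosen after the values were seen. They were not corrected for length or GC content, and the paired genes differ in length. The longest transcripts were 6811 bases for Hnrnpd and 2847 for Hnrnpc, and 1915 for Sf3b4 and 3222 for Sf3b2. Hnrnpa0 over Hnrnpk was 0.0309, 0.0546 and 0.0354 in WT and 0.334, 0.215 and 0.105 in the libraries labelled Bach2-cKO. Hnrnpd over Hnrnpc, an mRNA decay factor over a U-tract binder, was 0.134, 0.147 and 0.0949 in WT and 0.346, 0.395 and 0.364 in the other group. For the SF3b partners Sf3b4 over Sf3b2 the ratio was 2.35, 0.946 and 1.18 in WT and 0.191, 0.255 and 0.431 in the libraries labelled Bach2-cKO. For the U1 proteins, Snrpa over Snrpc was 0.912, 0.660 and 0.710 in WT and 0.306, 0.483 and 0.574 in the other group. The groups of none of the 4 ratios overlapped, as follows in part from the choice of genes. In the first 3 the 2 genes differed in opposite directions, and Snrpa and Snrpc both had lower means.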
